A study of Mus musculus with 20 samples.

Results

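Major urinary proteins are small lipocalins, barrel-shaped carrier proteins that the liver of adult male mice secretes into blood and that the kidney passes into urine, where they hold and slowly release volatile pheromones. Their genes lie in a tandem cluster on mouse chromosome 4, in which most copies are nearly the same and a few older copies have diverged. In the liver their transcription is known to depend on the pulses of growth hormone that are typical of males, acting through the growth hormone receptor, JAK2 and STAT5b.

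The results below concern 10 of these genes, Mup3, Mup7, Mup10, Mup11, Mup12, Mup13, Mup14, Mup19, Mup20 and Mup21, out of 54532 genes in the count table, of which 49 carry a Mup symbol. The members were chosen by symbol with measured counts and group differences of these same livers known, and the criterion behind the choice was not stated. Their levels and their fitted differences are therefore given as a description, and the counts of members past a threshold support nothing about the family as a whole. All 10 passed the filter on low values, 3 or more mice with a CPM (count over library size, scaled by trimmed mean of M-values) of 2 or more, as did 12289 genes in all and 17 of the other 39 Mup rows.

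The livers came from 20 male C57BL/6J mice, 1 liver and 1 library per mouse, with 5 mice in each of 4 groups. All of them had been made obese by 12 weeks of high-fat diet (HFD) and then had either Roux-en-Y gastric bypass (RYGB), which reroutes food past most of the stomach and the upper small intestine, or a sham operation. For the 8 weeks after surgery they ate chow or HFD, which gave Sham Chow and Sham HFD as well as RYGB Chow and RYGB HFD mice. The livers were drawn at random from a larger cohort, in which Sham HFD mice were heavier than the other groups, so that in comparisons with Sham HFD body weight cannot be told apart from diet or surgery. No batch is named in the sample descriptions.

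Total counts ran from 14604854 to 22537498 per library (median 19056997), and intervals from such PCR reads without molecular identifiers would cover counting error only. The 6 hepatocyte markers were all tested, and none was at 0. Their summed level was 66868 to 79572 CPM in Sham HFD livers, below the 94362 to 113344 CPM of RYGB HFD, against 78028 to 98429 CPM in Sham Chow and 70572 to 118498 CPM in RYGB Chow. The 5 markers of T and B cells summed to at most 9.40 CPM and the 5 of pancreas to at most 4.01 CPM, and none of the markers was at 0 in every mouse. All 5 markers of stellate cells and fibroblasts were tested and summed to 246 to 304 CPM in Sham HFD, against 123 to 198 CPM in Sham Chow and 174 to 269.5 CPM in RYGB HFD. The part of these markers in the results below was not tested. In whole liver, fewer hepatocytes and less Mup RNA per hepatocyte cannot be told apart.

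The members span 2084395 bases of chromosome 4 (GRCm38, chr4:60066469-62150863, all on the minus strand), from Mup7 at one end to Mup21 at the other, and all 10 are annotated as protein coding. Mup7 lies at chr4:60066469-60070475 and Mup10 (ENSMUSG00000078680) at chr4:60578260-60582199. At the other end, Mup20 lies at chr4:62050234-62054158, Mup3 (ENSMUSG00000066154) at chr4:62083476-62087342 and Mup21 at chr4:62147932-62150863. Between them, 2 tested genes that are not Mup genes, Gm13775 and Gm12909, lie inside the span.

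How far the counts of one member can be separated from those of another depends on sequence, so a stretch of 60 coding bases is shown for all 10. It is the 60-base stretch, free of gaps, in which most positions differ among the members (20 positions), aligned to Mup7. The sequences come from the GENCODE M21 transcripts, written 5′ to 3′ on the coding strand, and capitals mark bases that differ from Mup7.
Mup3: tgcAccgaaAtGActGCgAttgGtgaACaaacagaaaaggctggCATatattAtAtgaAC
Mup7: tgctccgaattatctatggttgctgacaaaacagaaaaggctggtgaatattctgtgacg
Mup10: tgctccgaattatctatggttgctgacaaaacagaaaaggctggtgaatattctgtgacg
Mup11: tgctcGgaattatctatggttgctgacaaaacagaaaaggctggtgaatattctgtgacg
Mup12: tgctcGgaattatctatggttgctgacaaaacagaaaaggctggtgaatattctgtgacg
Mup13: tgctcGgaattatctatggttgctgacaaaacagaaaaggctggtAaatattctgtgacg
Mup14: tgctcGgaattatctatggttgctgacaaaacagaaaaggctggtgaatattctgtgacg
Mup19: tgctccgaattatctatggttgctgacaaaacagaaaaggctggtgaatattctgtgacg
Mup20: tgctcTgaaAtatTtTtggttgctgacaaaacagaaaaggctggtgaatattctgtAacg
Mup21: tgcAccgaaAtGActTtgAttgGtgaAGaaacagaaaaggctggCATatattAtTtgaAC

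In this stretch Mup7, Mup10 and Mup19 carried the same bases, Mup11, Mup12 and Mup14 were equal to each other and differed from them at 1 position, and Mup13 differed from Mup7 at 2. Mup20 differed from Mup7 at 5 positions, Mup21 at 16 and Mup3 at 17. Over 537 coding positions aligned in all members, 106 varied among the 10 genes but only 13 among Mup7, Mup10, Mup11, Mup12, Mup13, Mup14 and Mup19. These 7 shared 98.33% to 99.44% of their coding bases in each of 21 pairs. Between them and the other 3 genes the identity was 82.34% to 91.34%, and Mup3 and Mup21 were 94.75% identical to each other.

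The library was read in pairs of 150 bases, so the transcripts were also searched for every word of 150 bases. Of the words in Mup3 and Mup21, 100% occurred in no other gene, and in Mup20 68.9%, its other words being shared only with the pseudogene Mup-ps19. Each of the other 7 members shared words with 14 or 15 other Mup genes, and between 0.765% (Mup19) and 35.2% (Mup11) of their words were their own. A read that fits several genes can be dropped or given to any of them, and the handling of such reads is not given in the sources used here. Counts of the 7 genes are therefore uncertain at the level of the single gene, whereas those of Mup3, Mup20 and Mup21 rest mostly or wholly on sequence of their own.

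The promoters, too, fell into these kinds. RefSeq (GRCm38.p6) gave a promoter for 7 of the 10 members, and up to 60 bases from upstream of every annotated start are shown, on the minus strand and 5′ to 3′, aligned from a 12-base word common to all 7. The last base shown lies 2 to 137 bases before the RefSeq start. Capitals mark bases that differ from Mup7, and gaps are left out.
Mup7, chr4:60070478-60070537: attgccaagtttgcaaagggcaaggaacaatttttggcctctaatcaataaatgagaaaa
Mup10, chr4:60582293-60582352: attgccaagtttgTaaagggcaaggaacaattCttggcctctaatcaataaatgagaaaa
Mup11, chr4:60662504-60662563: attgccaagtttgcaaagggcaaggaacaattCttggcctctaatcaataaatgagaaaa
Mup14, chr4:61304090-61304143: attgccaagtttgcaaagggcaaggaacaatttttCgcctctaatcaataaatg
Mup19, chr4:61782360-61782419: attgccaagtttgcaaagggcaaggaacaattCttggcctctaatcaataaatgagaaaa
Mup3, chr4:62087400-62087459: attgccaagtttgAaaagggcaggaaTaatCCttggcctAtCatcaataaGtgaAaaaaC
Mup21, chr4:62150918-62150977: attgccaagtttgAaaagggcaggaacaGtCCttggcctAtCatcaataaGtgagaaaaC

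Mup10, Mup11, Mup14 and Mup19 differed from Mup7 at 1 or 2 positions of this stretch, Mup21 at 8 and Mup3 at 9. The letters TTCNNNGAA, the core of the STAT5 motif (read the same on both strands), occurred in 0 of the 7 member promoters within the window of 250 bases before to 50 bases after the start. They occurred in 8.3% of all 32851 promoters of that length. A window without these letters says nothing about STAT5 elsewhere at these genes.

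Of the 10 members, 9 had their lowest group mean in Sham HFD livers, Mup10 being the exception. The summed level of the 10 genes was 18136 ± 6589 CPM in Sham Chow (mean ± SD, n = 5) and 6393 ± 2539 in Sham HFD. After the bypass it was 12468 ± 3959 CPM on chow and 13987 ± 2999.6 on HFD. The mean of Sham HFD was 2.84-fold under that of Sham Chow, and that of RYGB HFD was 2.19-fold above that of Sham HFD. As a share of all counts, the 10 genes held 1.16% to 2.54% in Sham Chow livers and 0.523% to 1.15% in Sham HFD livers.

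Mouse by mouse, the sums were 20822, 11666, 17945, 12486 and 27759.7 CPM in Sham Chow and 10909, 5562, 5507, 4975 and 5009.6 CPM in Sham HFD. In RYGB Chow they were 9419, 14938, 9880.2, 18271 and 9833 CPM, and in RYGB HFD 13466, 13725, 11105, 19031 and 12609 CPM. All 5 RYGB HFD livers lay above all 5 Sham HFD livers, as did all 5 Sham Chow livers, while RYGB Chow overlapped every other group. In Sham HFD, mouse 1 stood apart at 10909 CPM, the other 4 lying between 4975 and 5562 CPM.

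**Figure D1:**
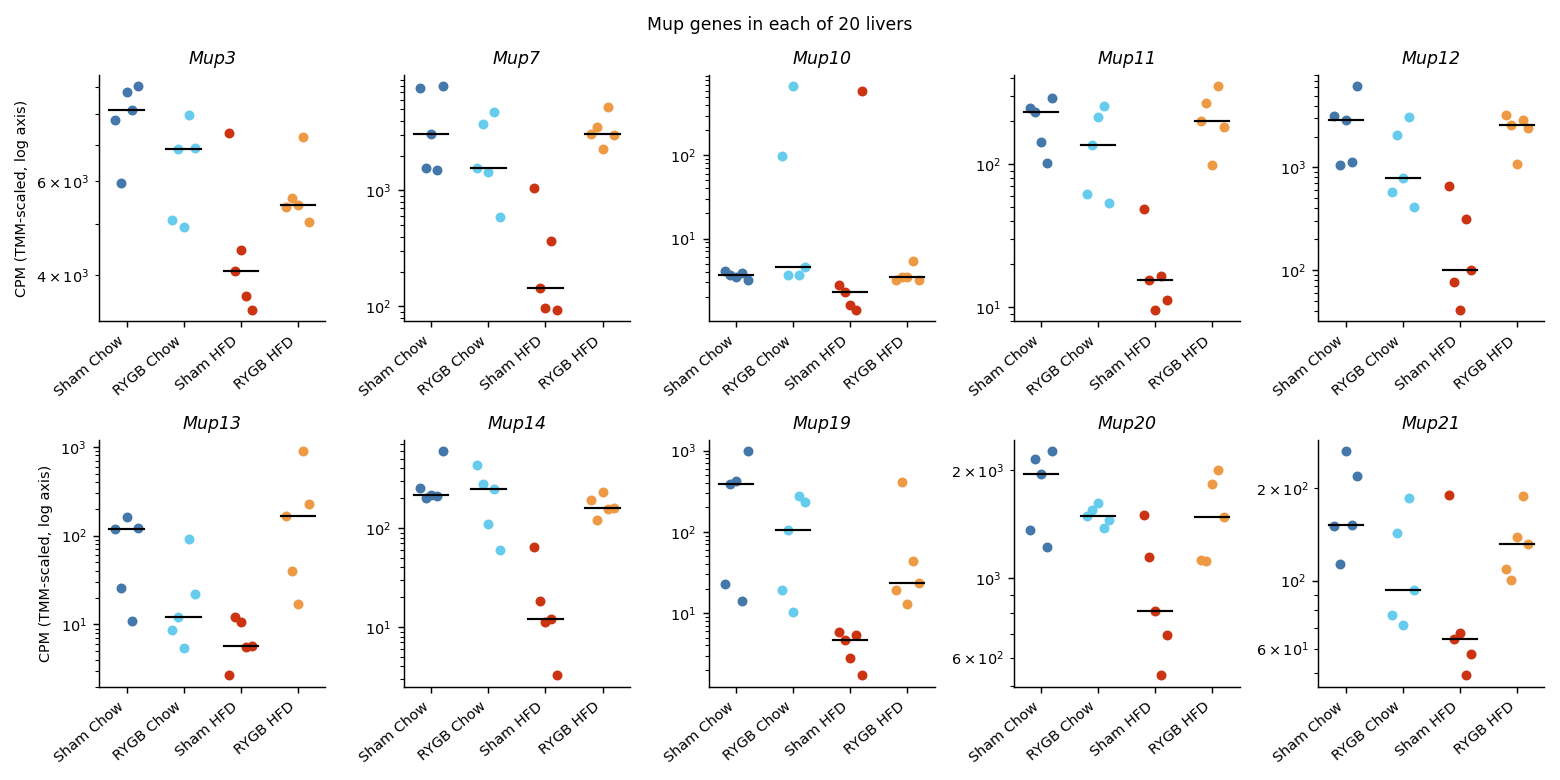
CPM of each of the 10 Mup genes (log axis, scaled by trimmed mean of M-values) in the 20 livers, 1 point per mouse in order of replicate number and a bar at the group median (n = 5 per group). In Sham HFD livers Mup7, Mup11, Mup12, Mup14 and Mup19 lay below every Sham Chow and every RYGB HFD liver, and Mup10 was high in 3 mice only.

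Mup3 was the most abundant member per length of transcript in all 4 groups, at 7447 ± 1152 CPM per kilobase of exon in Sham Chow and 4311 ± 1496 in Sham HFD (mean ± SD). Mup7, Mup12 and Mup20 followed, and in Sham Chow they stood at 4220.1 ± 3139, 3123 ± 2279 and 1933 ± 508 CPM per kilobase. In Sham Chow the range of each of these 4 overlapped that of the next. The genes were measured in the same livers, so this overlap does not settle their order within a liver. In Sham HFD the order changed: Mup20, at 1010.3 ± 419, came next after Mup3, their ranges did not overlap, and Mup7 followed at 341 ± 397. The other 6 members had means of at most 345 CPM per kilobase in every group, with ranges that mostly overlapped. Mup10 was the lowest of the 10 in Sham Chow and in RYGB HFD, below the range of its next neighbour in both.

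Sham Chow vs. Sham HFD asks what a return to chow, set against continued HFD, left in the liver of sham-operated mice. In this comparison 9 of the 10 members passed an adjusted p of 0.05 (edgeR's quasi-likelihood test over 12289 genes) as lower in Sham HFD and 1, Mup10, as higher, where 10.7% of all tested genes were lower and 10.9% higher. Because the choice of members may have used this comparison, nothing is read from the counts. The groups did not overlap for 5 members, Mup7, Mup11, Mup12, Mup14 and Mup19, all lower in Sham HFD, where 8.06% of tested genes were lower without overlap. The median fitted log2 difference of the members was -3.45, against -0.87 for the other 17 Mup rows, of which 7 are pseudogenes, and -0.0047 for all tested genes. The same choice bears on the median of the members, so nothing is read from its distance to the others.

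Sham HFD vs. RYGB HFD asks what the operation changed in mice that stayed on HFD. In this comparison 7 members passed as higher in RYGB HFD (Mup7, Mup11, Mup12, Mup13, Mup14, Mup19 and Mup20) and 1 as lower (Mup10), where 8.54% of tested genes were higher and 7.9% lower. The groups did not overlap for 6 members, all higher in RYGB HFD (Mup7, Mup11, Mup12, Mup13, Mup14 and Mup19), where 7.25% of tested genes were higher without overlap. Both comparisons share the Sham HFD livers, so the values in one are not independent of those in the other.

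Sham Chow vs. RYGB Chow asks the same of mice returned to chow. Here 0 of the 10 members passed the adjusted threshold, where 0.0488% of tested genes were higher in RYGB Chow and 0.00814% lower. Only 1 member had an unadjusted p under 0.05, Mup10, which among RYGB Chow livers was high in mice 1 and 3 only. DESeq2 called 1. In RYGB Chow vs. RYGB HFD 0 of 10 passed, where 1.99% of tested genes were higher in RYGB HFD and 1.65% lower. Here 2 members, Mup10 and Mup13, had an unadjusted p under 0.05. DESeq2 called 2 there. The shares of all tested genes at an unadjusted p under 0.05 and with DESeq2 are not given here, so nothing is read from those counts. In the surgery by diet interaction, the diet difference in RYGB mice less that in sham mice, 6 members passed as positive and 1 as negative (Mup10), where 2.48% of tested genes were positive and 2.58% negative.

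**Figure D2:**
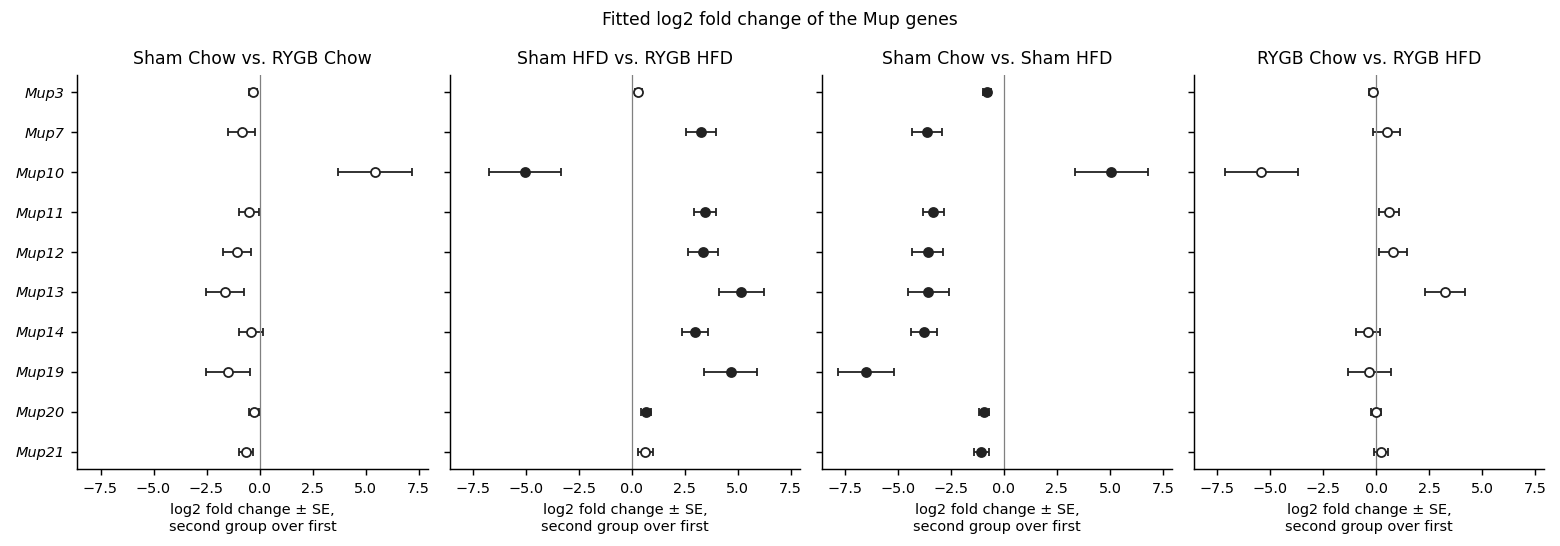
Fitted log2 fold change with its standard error for each Mup gene in the 4 comparisons, the second group over the first (edgeR, all 20 livers in 1 model); filled points passed an adjusted p of 0.05. Mup3, Mup20 and Mup21 moved by about 1 log2 unit or less with small errors, Mup7, Mup11, Mup12, Mup13, Mup14 and Mup19 by about 3 to 6.5 in the comparisons with Sham HFD, and Mup10 in the opposite direction with a wide error.

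The 3 diverged members are those whose counts are least shared. Mup20, also called darcin, is the pheromone protein of male urine that attracts females. It stood at 1364, 2155, 1958, 1226 and 2266 CPM in Sham Chow livers and at 1505, 1147, 808, 535 and 693 CPM in Sham HFD livers. RYGB Chow livers held 1496, 1549, 1617, 1384 and 1456 CPM and RYGB HFD livers 1123, 1117, 1829.6, 2001 and 1485 CPM. The Sham HFD livers reached lowest, but mouse 1 lay within the range of each other group and mouse 2 within that of RYGB HFD, and the RYGB Chow livers lay closest together. The fitted log2 difference was -0.94 ± 0.23 (SE) in Sham Chow vs. Sham HFD, a 1.91-fold lower level, and 0.69 ± 0.23 in Sham HFD vs. RYGB HFD. The call in Sham HFD vs. RYGB HFD was lost without any 1 of 12 single mice and under 5 of 9 other settings. The difference was -0.26 ± 0.23 in Sham Chow vs. RYGB Chow, and 0.01 ± 0.23 between the RYGB groups.

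Mup3 stood at 7804, 5942, 8816, 8153 and 9051 CPM in Sham Chow and at 7376, 4078, 4457, 3666 and 3443 CPM in Sham HFD. In RYGB Chow it stood at 5068, 6880.4, 4928, 7970.3 and 6910.3 CPM and in RYGB HFD at 5366, 5593, 5419.6, 7246 and 5024 CPM. Without mouse 1, at 7376 CPM, the Sham HFD livers would all lie below those of every other group. The log2 difference was -0.79 ± 0.18 in Sham Chow vs. Sham HFD, a 1.73-fold lower level, and 0.32 ± 0.18 in Sham HFD vs. RYGB HFD, the latter not past the threshold. Without Sham HFD mouse 1 these differences were -1.02 ± 0.15 and 0.54 ± 0.15, and both passed.

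Mup21 followed Mup3 from mouse to mouse at a lower level per length. It ranged over 113 to 264 CPM in Sham Chow, 71.9 to 187 in RYGB Chow and 101 to 189 in RYGB HFD. In Sham HFD it stood at 189.9, 64.4, 67.7, 49.1 and 57.8 CPM, again with mouse 1 far above the rest. Its log2 difference was -1.07 ± 0.34 in Sham Chow vs. Sham HFD and 0.64 ± 0.34 in Sham HFD vs. RYGB HFD, the latter not past the threshold. Without Sham HFD mouse 1 they were -1.58 ± 0.28 and 1.15 ± 0.28, and both passed.

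Among the 7 near-identical members, Mup7 and Mup12 carried most of the counts. Genes of this kind encode the bulk of the urinary protein of male mice. Mup7 stood at 7699.6, 1562, 3055, 1494 and 7986 CPM in Sham Chow and at 1057, 143, 97.9, 368 and 93.0 CPM in Sham HFD. RYGB Chow livers held 1574, 3749, 1451, 4787 and 585 CPM and RYGB HFD livers 3063, 3499, 2268, 5226 and 2977 CPM. Every Sham HFD liver was below every Sham Chow and RYGB HFD liver, and mouse 1 of Sham HFD was again its highest. The log2 difference was -3.63 ± 0.71 in Sham Chow vs. Sham HFD, a 12.4-fold lower level, and 3.28 ± 0.70 in Sham HFD vs. RYGB HFD, 9.69-fold higher. Without Sham HFD mouse 1 these differences were -4.63 ± 0.69 and 4.28 ± 0.68. In Sham Chow vs. RYGB Chow it was -0.84 ± 0.65, where the lowest RYGB Chow liver held 585 CPM and the ranges overlapped.

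Mup12 moved with Mup7, at 3156, 1045, 2901, 1121 and 6238 CPM in Sham Chow and 656, 76.1, 40.9, 317 and 99.8 CPM in Sham HFD. In RYGB HFD it stood at 3227, 2569, 1085, 2913 and 2396 CPM, and in RYGB Chow it ranged over 413 to 3070.2 CPM. Sham HFD did not overlap Sham Chow or RYGB HFD, while its mouse 1, at 656 CPM, lay within the RYGB Chow range. The log2 difference was -3.60 ± 0.73 in Sham Chow vs. Sham HFD and 3.36 ± 0.72 in Sham HFD vs. RYGB HFD, and without Sham HFD mouse 1 -4.44 ± 0.75 and 4.19 ± 0.74.

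Mup11 and Mup14 were likewise lowest in Sham HFD, at lower levels per length. Mup11 was at 202 ± 77.1 CPM in Sham Chow (mean ± SD, n = 5) and 20.2 ± 16.2 in Sham HFD, and at 144 ± 89.6 in RYGB Chow and 220.2 ± 96.1 in RYGB HFD. Its log2 difference was -3.33 ± 0.51 in Sham Chow vs. Sham HFD and 3.45 ± 0.51 in Sham HFD vs. RYGB HFD. Mup14 was at 297 ± 171 CPM and 21.8 ± 24.3 CPM in the sham groups on chow and HFD, and at 225 ± 147 and 172 ± 42.1 CPM in the RYGB groups. Its log2 difference was -3.78 ± 0.62 in Sham Chow vs. Sham HFD and 2.99 ± 0.60 in Sham HFD vs. RYGB HFD. For both genes the highest Sham HFD liver, mouse 1 (48.8 CPM of Mup11 and 64.2 CPM of Mup14), lay below every Sham Chow and every RYGB HFD liver. Without that mouse the differences were -3.95 ± 0.49 and 4.07 ± 0.50 for Mup11. For Mup14 they were -4.73 ± 0.57 and 3.94 ± 0.55.

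Mup13 and Mup19 varied most among these 7 after Mup10. Mup13 stood at 119.9, 25.7, 162, 11.1 and 121 CPM in Sham Chow and at 2.67, 12.3, 10.6, 5.63 and 5.79 CPM in Sham HFD. In RYGB HFD it stood at 165, 39.6, 17.2, 898 and 229.9 CPM, in RYGB Chow at 8.77, 12.0, 5.44, 92.3 and 22.02 CPM. Mouse 4 was the highest in both RYGB groups, and the lowest Sham Chow liver, at 11.1 CPM, lay within the Sham HFD range. The log2 difference was -3.56 ± 0.98 in Sham Chow vs. Sham HFD, 5.18 ± 1.04 in Sham HFD vs. RYGB HFD and 3.26 ± 0.94 in RYGB Chow vs. RYGB HFD. Without RYGB HFD mouse 4, at 898 CPM, the latter 2 were 3.92 and 2.00, and without RYGB Chow mouse 4 the last was 4.48 and passed the threshold.

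Mup19, of whose words almost none are its own, stood at 22.8, 386, 424, 14.1 and 986 CPM in Sham Chow and at 5.91, 4.62, 2.79, 5.45 and 1.71 CPM in Sham HFD. In RYGB Chow it stood at 19.2, 104, 10.3, 275 and 235 CPM and in RYGB HFD at 19.0, 413, 12.8, 43.2 and 23.8 CPM. High and low livers stood side by side within each group other than Sham HFD, whose 5 livers reached at most 5.91 CPM, below every liver of the other groups. The log2 difference was -6.50 ± 1.33 in Sham Chow vs. Sham HFD and 4.67 ± 1.24 in Sham HFD vs. RYGB HFD, and without RYGB HFD mouse 2, at 413 CPM, the latter was 2.61 and not past the threshold. Without Sham Chow mouse 5, at 986 CPM, the former was -5.72, and with limma-voom it did not pass.

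In its group means Mup10 went against the other 9, and these means rest on 3 mice. It stood at 4.06, 3.67, 3.42, 3.86 and 3.15 CPM in Sham Chow and at 3.21, 3.49, 3.40, 5.32 and 3.19 CPM in RYGB HFD. In RYGB Chow it stood at 99.2, 3.61, 686, 3.67 and 4.53 CPM and in Sham HFD at 2.78, 2.27, 1.60, 1.38 and 601 CPM. RYGB Chow mice 1 and 3 and Sham HFD mouse 5, with 1821, 12493 and 13714 raw counts, were far above the other 17 mice, which held 23 to 90 counts. Among these 17, Sham HFD mice 1 to 4, at 1.38 to 2.78 CPM, lay below every liver of the other groups, at low counts. The log2 difference of 5.07 ± 1.71 in Sham Chow vs. Sham HFD turned to -0.86 without Sham HFD mouse 5, and that of -5.03 ± 1.71 in Sham HFD vs. RYGB HFD turned to 0.89. In RYGB Chow the difference from Sham Chow of 5.45 ± 1.73 became 2.93 without RYGB Chow mouse 3.

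In those 3 livers another gene of the cluster, Mup22, was low. Mup22, which is no member, was named after its values were seen: 91.8% of its 150-base words occur in Mup10 and 0 are its own. It stood at 210.4 CPM in RYGB Chow mouse 1, at 479 CPM in RYGB Chow mouse 3 and at 313 CPM in Sham HFD mouse 5, against 956 to 2612 CPM in the other 17 livers. The livers with high Mup10 were thus the 3 with the lowest Mup22. Counted as 1 gene, Mup10 and Mup22 stood at 1867 ± 456 CPM in Sham Chow and 1233 ± 441 in Sham HFD, and at 1345 ± 653 in RYGB Chow and 1520.1 ± 215 in RYGB HFD.

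The log2 difference of the joined gene Mup10 plus Mup22 was -0.60 ± 0.32 in Sham Chow vs. Sham HFD and 0.30 ± 0.32 in Sham HFD vs. RYGB HFD, the reverse of the directions of Mup10 alone, and it passed the threshold in 0 of the 5 comparisons. RYGB Chow mouse 1 stayed low on the joined scale, at 309.5 CPM, where the other 4 RYGB Chow livers held 1165 to 1941 CPM. Why the 2 genes stand against each other in these livers was not tested.

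**Figure D3:**
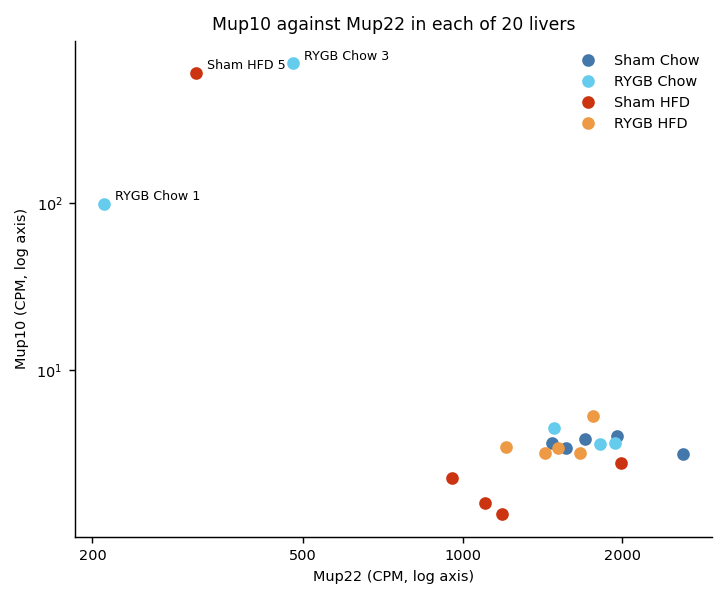
CPM of Mup10 against CPM of Mup22 in each of the 20 livers (both axes log), 1 point per mouse, coloured by group. The 3 livers with Mup10 at 99.2 to 686 CPM are the 3 with Mup22 at or below 479 CPM; the other 17 lie together at 1.38 to 5.32 CPM of Mup10.

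A sum over genes that share words does not depend on how reads were split among those genes, although reads left out for fitting several genes, if there were any, are missing from it. The 7 members and 9 other tested genes (Mup1, Mup2, Mup8, Mup9, Mup15, Mup16, Mup17, Mup18 and Mup22) each shared words with 10 or more Mup genes, and the sum of the 16 was 11816 ± 7259 CPM in Sham Chow and 2464 ± 1276 in Sham HFD. In the RYGB groups it was 6501 ± 3840.2 CPM on chow and 8719.9 ± 2331 on HFD. The Sham HFD livers held 1682 to 4679 CPM, below the lowest Sham Chow liver (5712 CPM) and the lowest RYGB HFD liver (5629 CPM). The mean of Sham HFD was 4.8-fold under that of Sham Chow, and the mean of RYGB HFD 3.54-fold above that of Sham HFD. In RYGB Chow the sums ran from 3308 to 11963 CPM, across the ranges of both sham groups.

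The spread between mice of 1 group was wider in the near-identical members. The within-group SD of log2(CPM + 0.5), pooled over the 4 groups, was 0.31 for Mup3, 0.41 for Mup20 and 0.57 for Mup21, and 0.82 to 2.46 for the other 7, against a median of 0.20 over all tested genes. Mup10 had the widest spread of all members and Mup3 the narrowest, at the percentile 75.4 of all tested genes. The spread did not follow the sharing of words in each of the 27 tested Mup rows: Mup18, with 13.7% of words of its own, had an SD of 0.36, and Mup4, with 100%, had an SD of 1.93. Mup4, known mainly from glands rather than liver, had 86 to 246 counts in 5 livers and 0 in the other 15.

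**Figure D4:**
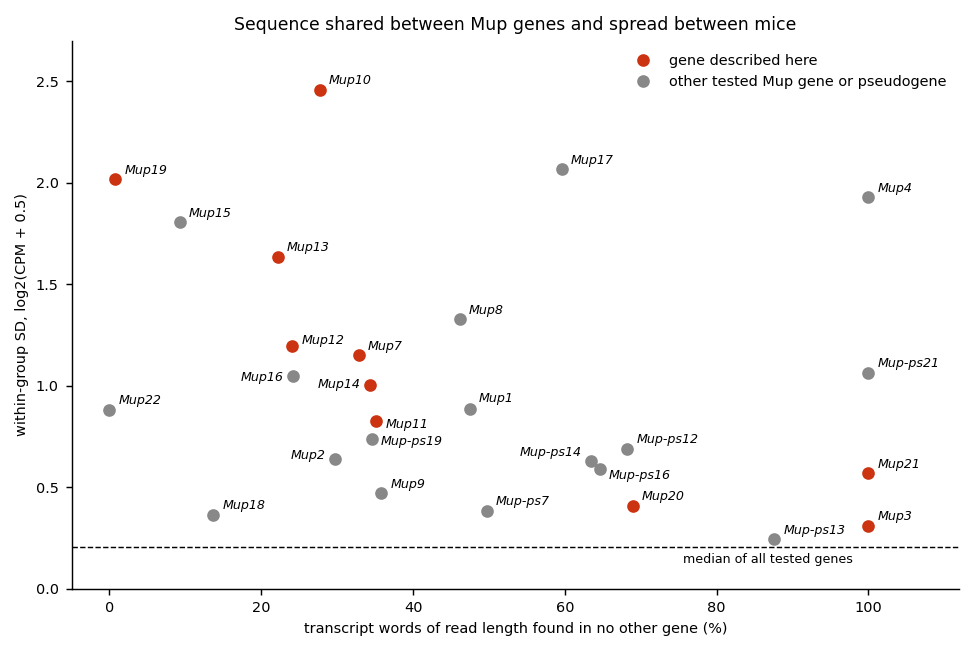
For the 27 tested Mup genes and pseudogenes, the percentage of 150-base transcript words found in no other gene (x) against the within-group SD of log2(CPM + 0.5) over 20 livers (y); the dashed line is the median of all tested genes. Members Mup3, Mup20 and Mup21 lie at the lower right with SDs of 0.31 to 0.57, and the other 7 at the left with 0.82 to 2.46.

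Member levels varied together across livers, apart from Mup10. Over the 20 livers the Pearson correlation of log2(CPM + 0.5) ran from 0.44 to 0.98 in the 36 pairs without Mup10 (median 0.69) and from -0.38 to -0.076 in the 9 pairs with it. In ranks those 9 pairs ran from -0.029 to 0.28 (Spearman's rho), so over all livers the negative sign mostly did not hold in ranks. With each group mean subtracted it did, the 9 pairs running from -0.505 to -0.0549 and in ranks from -0.556 (Mup19) to -0.0165 (Mup11). These points share libraries and group differences, and reads in part. After each group mean was subtracted, the range without Mup10 was -0.02 to 0.93 (median 0.38), with Mup7 and Mup12 at 0.93 (rho 0.93) and Mup3 and Mup21, which share no words, at 0.91 (rho 0.86).

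Sham HFD mouse 1 was the highest of its group for 8 of the 9 members that were lower in Sham HFD, the exception being Mup13. With that mouse left out, all 10 members passed the threshold in Sham HFD vs. RYGB HFD, in place of 8, and all 10 in the interaction, in place of 7. Mup10 was among them in the opposite direction, at -5.36 ± 1.70 and -10.81 ± 2.38. The share of all tested genes in that fit is not given here, so nothing is read from these counts. Mouse 1 was also the Sham HFD liver nearest to Sham Chow for 14 of 17 male-biased and 5 of 9 female-biased liver genes, other than Mup genes, that passed in Sham Chow vs. Sham HFD.

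The other 17 tested Mup rows were 10 coding genes and 7 pseudogenes, and 6 of them passed as lower in Sham HFD than in Sham Chow (Mup1, Mup8, Mup9, Mup15, Mup18 and Mup-ps19) and 1 as higher (Mup-ps14). In Sham HFD vs. RYGB HFD, Mup1, Mup8, Mup9, Mup16 and Mup-ps19 passed as higher and Mup-ps12 and Mup-ps14 as lower. Mup1, another near-identical copy, had a log2 difference of -2.77 ± 0.55 and 2.30 ± 0.54 in these comparisons. Mup9 had -2.06 ± 0.34 and 1.78 ± 0.34. Mup-ps14 went the other way, with 1.65 ± 0.49 and -2.08 ± 0.51. It reached 2 CPM only in Sham HFD livers (2.27 to 5.92 CPM) and in RYGB HFD mouse 1 (2.99 CPM). It thus passed the filter on low values through Sham HFD, and nothing is read from its direction. Mup-ps7 passed as higher in RYGB HFD than in RYGB Chow, the only 1 of the 17 in that comparison.

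The genes around the cluster did not follow it. Of the 5 tested genes on each side and the 2 within the span, 0 of 12 passed in Sham Chow vs. Sham HFD, and their median log2 difference was -0.0143. In Sham HFD vs. RYGB HFD, Slc31a2, a copper transporter gene, was lower in RYGB HFD, with a log2 difference of -0.43 ± 0.12 (adjusted p = 0.0143 in edgeR's test) and Gm13775, a transcript inside the span, was lower too, with -0.84 ± 0.24 (adjusted p = 0.0184), while the members around Gm13775 were higher. On HFD, Gm13775 stood at 20.5 ± 4.52 CPM (mean ± SD, n = 5) after sham surgery and at 11.4 ± 1.98 CPM after RYGB.

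Of 15 genes listed from growth hormone to STAT5, 13 were tested, and those that passed were mostly known targets. Ghr, the growth hormone receptor, differed by 0.13 ± 0.10 (adjusted p = 0.331) in Sham Chow vs. Sham HFD, Jak2 by 0.26 ± 0.10 (adjusted p = 0.0585) and Stat5b by 0.12 ± 0.11 (adjusted p = 0.446) in edgeR's test. Cish, on the same list, passed in no comparison and held 8.49 to 39.2 CPM in Sham Chow and 3.89 to 25.7 CPM in Sham HFD. In Sham Chow vs. Sham HFD 3 of the 13 were lower in Sham HFD and 2 higher, where 10.7% and 10.9% of all tested genes were. Socs2, a feedback inhibitor that STAT5b induces, was lower, with a log2 difference of -1.92 ± 0.43 (adjusted p = 0.00354), Igf1, the circulating growth factor, with -0.58 ± 0.11 (adjusted p = 0.000697) and Igfals, its carrier subunit, with -0.44 ± 0.12 (adjusted p = 0.0162). Igfbp3, a carrier of Igf1, and Stat5a were higher, by 0.76 ± 0.20 and 0.60 ± 0.14.

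In Sham HFD vs. RYGB HFD, 4 of these 13 genes were higher in RYGB HFD (Socs2, Socs3, Igf1 and Igfals) and 1 lower (Igfbp3), where 8.54% and 7.9% of all tested genes were. Socs2 stood at 8.58, 12.7, 7.98, 7.01 and 9.78 CPM in Sham HFD and at 13.5, 44.0, 22.1, 25.0 and 26.3 CPM in RYGB HFD. The 2 groups did not overlap, and the log2 difference was 1.504 ± 0.43 (adjusted p = 0.0194 in edgeR's test). In Sham Chow vs. RYGB Chow and between the RYGB groups 0 of 13 passed.

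Of 18 other factors known to act on Mup genes, 3 were lower in Sham HFD than in Sham Chow and 0 higher: Hnf4a, Foxa3 and Cebpa, which encode liver transcription factors. Of all tested genes 10.7% were lower there and 10.9% higher, and nothing is read from the count. Their log2 differences were -0.43 ± 0.13, -0.56 ± 0.19 and -0.30 ± 0.09. Hnf4a alone passed in Sham HFD vs. RYGB HFD, higher by 0.49 ± 0.13 (adjusted p = 0.0166 in edgeR's test), where 8.54% of all tested genes were higher. Zhx2, a transcriptional regulator, and Thrb, a thyroid hormone receptor, did not pass in any of the 4 comparisons.

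Other genes whose liver levels are known to be higher in males moved as most members did. Of the 19 tested genes in a list of male-biased genes other than Mup genes, 17 were lower in Sham HFD than in Sham Chow and 0 higher, with a median log2 difference of -1.86. Of all tested genes 10.7% were lower there and 10.9% higher. In Sham HFD vs. RYGB HFD 11 were higher and 0 lower, where 8.54% and 7.9% of all tested genes were. In RYGB Chow vs. RYGB HFD 3 were lower (Cyp4a12a, Gstp1 and Nat8), and in Sham Chow vs. RYGB Chow 0 passed. The list was drawn up with results of these data known.

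Hsd3b5, a steroid-metabolizing enzyme, stood at 194, 61.5, 195, 92.0 and 189 CPM in Sham Chow and at 4.87, 0.370, 0.507, 0.0599 and 0.0439 CPM in Sham HFD. In RYGB HFD it stood at 141, 224, 169.6, 318 and 183 CPM, so Sham HFD lay far below both groups, and its mouse 1 was the highest there too. Its log2 difference was -7.07 ± 0.74 (adjusted p = 3.71e-06) in Sham Chow vs. Sham HFD in edgeR's test, and between the HFD groups 7.57 ± 0.75 (adjusted p = 2.14e-06). Slco1a1, an organic anion transporter, differed by -2.85 ± 0.52 and 3.12 ± 0.53. Cyp4a12a, a fatty acid hydroxylase, had a difference of -2.55 ± 0.33 between the sham groups and between the HFD groups differed by 0.53 ± 0.32 (adjusted p = 0.273 in edgeR's test).

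Female-biased liver genes mostly went the other way. Of 24 listed 12 were tested, of which 7 were higher in Sham HFD than in Sham Chow and 2 lower, where 10.9% and 10.7% of all tested genes were. In Sham HFD vs. RYGB HFD 7 were lower in RYGB HFD and 2 higher, where 7.9% and 8.54% of all tested genes were. Hao2 and Cyp2b13 were among the 7 in both comparisons, and passed the filter on low values only through Sham HFD livers. Their directions were thus set by the filter, and nothing is read from them. Cyp2b9, a cytochrome P450, stood at 8.02, 1.97, 0.786, 19.4 and 0.667 CPM in Sham Chow and at 80.6, 219, 274, 328 and 395 CPM in Sham HFD. The groups did not overlap, and mouse 1 was the lowest Sham HFD liver. Its log2 difference was 5.45 ± 0.74 in Sham Chow vs. Sham HFD and -5.09 ± 0.73 in Sham HFD vs. RYGB HFD. Hao2, a hydroxyacid oxidase, differed by 5.08 ± 0.67 and -5.34 ± 0.69. It held 4.67 to 18.8 CPM in Sham HFD and at most 1.13 CPM in every other liver. The 2 genes against this direction were Cyp2c40 and Cyp2c69, cytochrome P450 genes of a family of close copies, both lower in Sham HFD and higher in RYGB HFD than in Sham HFD.

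**Figure D5:**
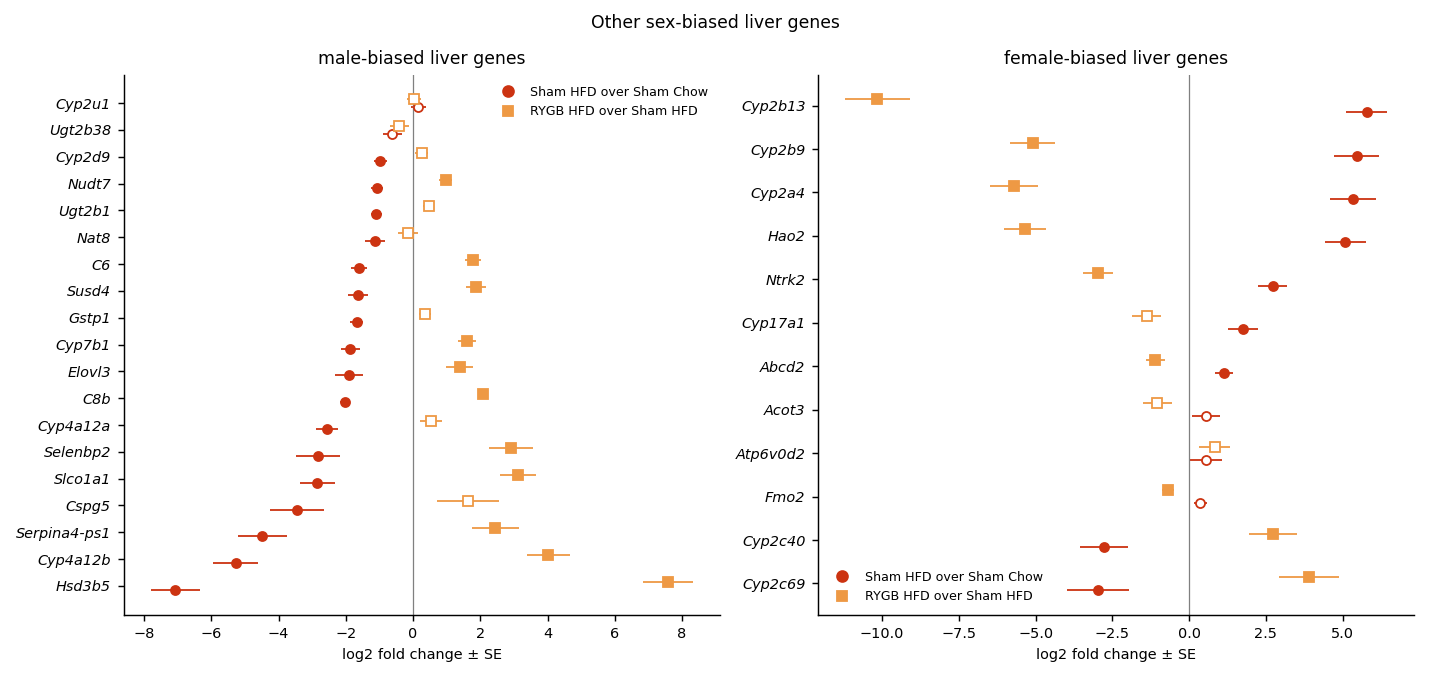
Fitted log2 fold change with standard error for tested male-biased (left, 19 genes) and female-biased (right, 12 genes) liver genes that are not Mup genes; circles are Sham HFD over Sham Chow, squares RYGB HFD over Sham HFD, and filled symbols passed an adjusted p of 0.05. Among male-biased genes 17 are lower in Sham HFD and 11 higher in RYGB HFD, and among female-biased genes 7 are higher in Sham HFD and 7 lower in RYGB HFD. The female-biased genes Hao2 and Cyp2b13 passed the filter on low values only through Sham HFD.

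Other lipocalins did not share 1 direction. Of 10 tested, 4 were lower in Sham HFD than in Sham Chow (Ambp, Apom, Orm1 and Ptgds) and 3 higher (Lcn2, Orm2 and Orm3), where 10.7% and 10.9% of all tested genes were. Apom, which carries sphingosine-1-phosphate on lipoproteins, was lower, with a log2 difference of -1.10 ± 0.14 (adjusted p = 1.59e-05), and Lcn2, an iron-siderophore binder of the acute phase, was higher by 3.43 ± 0.47 (adjusted p = 4.86e-05) in edgeR's test. In Sham HFD vs. RYGB HFD, Ambp, Apom, Orm1 and Ptgds were higher in RYGB HFD and Orm3 lower.

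The genes whose levels were most like the summed members over the 20 livers were Cyp7b1 (Pearson r = 0.942), Serpina3k (0.915), Nudt7 (0.902), Serpina1c (0.891) and Cyp4a12b (0.889), on log2 scales. Cyp7b1, an oxysterol hydroxylase, stood at 378, 231, 219, 172 and 377 CPM in Sham Chow and at 114, 71.8, 52.1, 80.3 and 60.5 CPM in Sham HFD, with no overlap. Those most opposed were Cyp2c38 (-0.918), Nudt18 (-0.896), Slc22a27 (-0.895), Cyp2a22 (-0.888) and Cyp2b9 (-0.88). These values describe 20 libraries in which the group differences are shared. With each group mean subtracted, the same genes gave 0.705 to 0.858 and -0.824 to -0.601.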

How the data were processed

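Liver poly(A) RNA of 20 mice was sequenced as strand-marked paired reads of 150 bases. The authors trimmed reads with Trimmomatic 0.36, aligned them to mm10 with HISAT2 2.1.0 and deposited raw counts per gene from featureCounts 1.5.0-p3, without normalization. The annotation release, the strand setting and the treatment of reads that fit several genes are not given in the sources used here. Symbols, positions and transcripts came from GENCODE M21 (GRCm38).

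The members, the gene lists and the tests were chosen with earlier results of these data known. Named were all 10 members, Mup genes past the filter, list genes that passed a comparison, the 5 most and 5 least correlated genes, and the tested neighbours. Others were named after their values were seen. Counts were scaled by TMM and tested with edgeR 4.0.16 (R 4.3.3; quasi-likelihood, two-sided, Benjamini-Hochberg over 12289 genes, each at 2 CPM or more in 3 or more mice) in 1 model of the 4 groups. CPM values are TMM-scaled. The fit was tested on simulated data. Alternatives were DESeq2 1.42.0, limma 3.58.1 (voom), other scalings and filters, only the 2 groups compared, a replicate block and leaving out each mouse. No 2 columns were identical, and mice of 1 group differed beyond sampling noise. Same-numbered mice did not deviate together, so the numbers were not taken as pairs. Words of 150 bases, coding alignments and the motif were computed with Python 3.11.15 and Biopython 1.88.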

Additional observations from a re-analysis of the deposited data

Results flagged for a closer look

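Within the 40 sets of 5 livers (10 genes by 4 groups), a liver stood apart from the rest of its group 13 times by Dixon's criterion on CPM. Each time it was the highest. The criterion's rate of about 1 in 20 groups holds for normally distributed values. CPM values need not be so distributed, and the 40 sets share the same 20 mice, so the 13 cannot be weighed against that rate. In Sham HFD the liver that stood apart was mouse 1 for Mup3 (7376 CPM), Mup7 (1057 CPM), Mup11 (48.8 CPM), Mup14 (64.2 CPM) and Mup21 (189.9 CPM). For Mup10 they were RYGB Chow mouse 3 (686 CPM), Sham HFD mouse 5 (601 CPM) and RYGB HFD mouse 4 (5.32 CPM). RYGB HFD mouse 4 also stood apart for Mup3 (7246 CPM) and Mup13 (898 CPM), RYGB Chow mouse 4 for Mup13 (92.3 CPM), Sham Chow mouse 5 for Mup14 (600.2 CPM) and RYGB HFD mouse 2 for Mup19 (413 CPM).

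The diet difference of RYGB mice less that of sham mice passed an adjusted p of 0.05 for 7 members in edgeR's interaction test. On the log2 scale it was 4.12 for Mup7, 4.42 for Mup12, 3.39 for Mup14, 6.18 for Mup19, 3.94 for Mup11 and 6.82 for Mup13, and -10.49 for Mup10. The call of Mup19 was lost without any 1 of 5 single mice (4.11 without RYGB HFD mouse 2) and under 2 of 8 other settings. Mup13 gave 5.56 without RYGB HFD mouse 4 and 8.05 without RYGB Chow mouse 4, and Mup7, Mup11, Mup12 and Mup14 gave 5.11, 4.56, 5.25 and 4.34 without Sham HFD mouse 1. The value of Mup10 was -4.56 and did not pass without Sham HFD mouse 5. It rests on the 3 livers with high counts, and with Mup22 counted into the same gene it was 0.78 ± 0.45 and did not pass.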

How the results depend on the processing

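Of 445 values of single members under other settings than leaving out a mouse, 415 kept direction and side of the threshold, and of 1000 without 1 mouse each, 940 did. The count of members called in Sham HFD vs. RYGB HFD was 8, fell to 5 with a replicate block and ran from 6 to 10 without 1 mouse. Between the sham groups it was 10, 7 with limma-voom, 9 with the replicate block and 8 to 10 without 1 mouse, and in the interaction 5 with the replicate block in place of 7 and 5 to 10 without 1 mouse. Between the RYGB groups it was 0, but 2 with DESeq2, 1 with no filter and 0 to 1 without 1 mouse. In Sham Chow vs. RYGB Chow DESeq2 called 1. The shares of all tested genes under these other settings are not given here. Same-numbered mice correlated at -0.257 to 0.165, so the block pairs mice that share only a number, and a call lost under it is not a weaker effect. Without Mup10 in the count, an alternative chosen after seeing the data, 7 members passed in Sham HFD vs. RYGB HFD, 9 between the sham groups and 6 in the interaction.

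Directions turned in few cases. The log2 difference of Mup20 between the RYGB groups was -0.028 with limma-voom, -0.0109 with library size only and -0.00211 with no filter, and without 1 mouse each ran from -0.11 to 0.10. Counted with Mup22 as 1 gene, also chosen after seeing the data, Mup10 gave -0.47 in Sham Chow vs. RYGB Chow, 0.30 between the HFD groups, -0.60 between the sham groups, 0.18 between the RYGB groups and 0.78 in the interaction. Without 1 mouse each, Mup10 ran from -5.36 to 0.89 between the HFD groups and from -0.86 to 5.39 between the sham groups, both turned by Sham HFD mouse 5. Mup14 ran from -0.77 to 0.0266 in Sham Chow vs. RYGB Chow, turned by Sham Chow mouse 5, and Mup19 from -2.39 to 0.15 between the RYGB groups, turned by RYGB Chow mice 4 and 5. The cause was not tested beyond the mouse left out. Calls of Mup20 and Mup10 in Sham HFD vs. RYGB HFD were each lost without any 1 of 12 of the 20 mice, and those of Mup10 and Mup21 between the sham groups without any 1 of 6. Depth limits Mup10, with 23 to 90 counts in 17 mice, and body weight, diet and surgery cannot be told apart in comparisons with Sham HFD.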
